A study of Mus musculus with 6 samples.

Results

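The genes described here are 10 genes that carry the start of interferon signaling: 2 ligands, Ifnb1 and Ifng, 4 receptor chains, Ifnar1, Ifnar2, Ifngr1 and Ifngr2, and the 4 Janus kinases, Jak1, Jak2, Jak3 and Tyk2. They were taken by gene name from a table of 57010 genes, and all 10 were found in it. They were measured by RNA-seq in 6 libraries of primary neonatal mouse cardiomyocytes (NMCMs), which were isolated from the hearts of newborn C57BL/6 mice and kept under hypoxia (HO). Cells of the HO + Vehicle group (V1, V2 and V3) received vehicle, and cells of the HO + β-SITO group (T4, T5 and T6) received β-sitosterol (β-SITO), a plant sterol. The dose and duration behind these libraries are not given in the sources used here. No normoxic library was analysed, so both groups share the hypoxia. The names of the HO + β-SITO libraries alone carry the suffix C, and the treatment cannot be told apart from whatever it marks. The sources do not say whether the libraries of a group came from separate cultures or hearts, and p-values then measure only the spread between these libraries, which may be technical.

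Interferons are secreted proteins that warn neighbouring cells of infection or damage. Interferon-β, encoded by Ifnb1, is a type I interferon and binds a receptor made of IFNAR1 and IFNAR2, on which TYK2 and JAK1 sit. Interferon-γ, encoded by Ifng, is the type II interferon, comes mainly from T cells and natural killer cells, and binds IFNGR1 and IFNGR2, on which JAK1 and JAK2 sit. The kinases phosphorylate each other, the receptor and then STAT proteins, which enter the nucleus and turn on response genes. JAK3 serves other cytokines, through the common γ chain.

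The libraries held between 16694734 and 18460522 counts, and expression is given as CPM, the usual counts-per-million unit, after TMM scaling between libraries. A gene was called where it changed more than 2-fold and its adjusted p was under 0.05, by edgeR's quasi-likelihood test across 14799 genes with Benjamini-Hochberg adjustment. Summed per kilobase of exon, 10 cardiomyocyte markers came to 2268 to 2611 CPM per kilobase under HO + Vehicle and to 2183 in T4, 4009 in T5 and 4128 in T6. T4 stood apart from T5 and T6, with a chi-square per gene of 8.57 and 9.06 against 1.96 between T5 and T6, where 1 is sampling noise. Pairs of HO + Vehicle libraries gave 4.71 to 7.51, so those libraries also differed beyond noise and T5 and T6 were the closest pair. Without T4 the log2 fold change was -3.44 for Jak2 and -1.67 for Ifnar2, and the same 2 of the 10 genes were called. The corresponding range for 8 fibroblast markers was 3643 to 3757 against 5245 to 5388, above the cardiomyocyte sum in every library. These sums are of different genes, and in CPM Col1a1, Col1a2 and Col3a1 were the highest of the 8. The median log2 fold change of the 8 was 0.50, with 0 called, and Dcn (-0.52) and Postn (-0.22) were lower. For 10 macrophage markers the sum was 815.1 to 912.9 against 1704 to 2089, with 6 genes called higher and 2 lower. The sum of 7 endothelial markers was 73.0 to 85.4 against 156.3 to 166.2 (6 called higher, and Flt1 lower at -2.36), or 666.8 to 784.2 against 864.8 to 920.5 CPM without length scaling. Smooth muscle and pericyte markers summed to 344.7 to 370.9 against 623.7 to 712.5 CPM per kilobase, with 3 of 6 called higher. In bulk samples fewer cells of a type and less RNA per cell cannot be told apart, and the part of cell makeup in the values below was not tested.

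Both ligands were at or near 0 while their receptors were well covered. Ifng (ENSMUSG00000055170, chromosome 10, 118276951 to 118281797 on GRCm39, the build named in the submitters' processing notes) had 0 counts in each of the 6 libraries. A count of 0 allows up to 0.179 CPM of the raw library total in V1, 0.180 in V2, 0.176 in V3, 0.163 in T4, 0.177 in T5 and 0.164 in T6, for counting error only. Ifnb1 (ENSMUSG00000048806, chromosome 4, 88440262 to 88441011) had 1 count in V2 and 0 in V1, V3, T4, T5 and T6. That single count is 0.0599 CPM of the raw total of V2, with an exact Clopper-Pearson 95% interval from 0.00152 to 0.334. Neither gene passed the filter on low counts, so neither was tested, and a difference between the groups was not detectable at this depth.

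The other interferon genes were as sparse. Of 19 further ligand genes (the Ifna family, Ifnab, Ifne, Ifnk, Ifnz, Ifnl2 and Ifnl3), 17 had 0 counts in all libraries. Ifna5 had 2 counts in V2 only, and Ifnz had 2 counts in V1, 4 in V2 and 3 in T5. Ifna genes are near-identical copies, so their counts are uncertain. All 21 ligand genes together held 9 counts over V1 to V3 and 3 over T4 to T6. Of 10 markers of T cells and natural killer cells, 5 had 0 counts in every library (Cd3d, Cd3e, Cd3g, Ncr1 and Gzmb) and the others had few. Trac, the constant part of a T cell receptor chain, had 19, 11 and 12 counts in V1, V2 and V3 and 32, 31 and 31 in T4, T5 and T6. Prf1 had 10, 2 and 7 counts against 14, 13 and 15, and Klrb1c 0, 0 and 0 against 2, 6 and 10. The whole list summed to 0.831 to 1.601 CPM per kilobase against 2.13 to 2.26, with none called. Siglech of plasmacytoid dendritic cells, a main source of type I interferons, had 0 counts in every library. Of the 5 listed markers of these dendritic cells, 2 were tested, and they went in opposite directions. Bst2, which is also an interferon response gene, had a log2 fold change of -3.70 and was called lower. Tcf4 was higher, at 0.63, and was not called. Ly6c2 had 1, 4 and 3 counts in V1, V2 and V3 and 1, 0 and 0 in T4, T5 and T6. Ccr9 had 2, 4 and 2 counts against 1, 2 and 1.

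**Figure D1:**
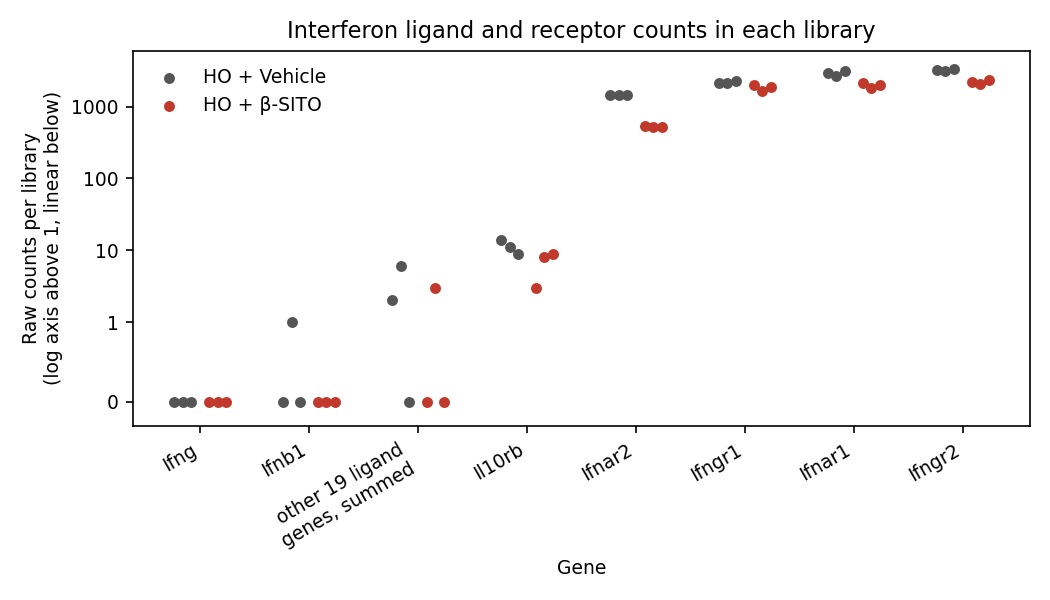
Raw counts of interferon ligand and receptor genes, 1 point per library, on an axis that is linear below 1 and logarithmic above it. Ifng is at 0 in all 6 libraries and Ifnb1 reaches 1 count in V2, while Il10rb lies between 3 and 14 counts and the type I and type II receptor chains between 520 and 3300. The levels of Il10rb and Ifnar2 are uncertain, since another annotated gene, Gm21970, overlaps both.

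The sequence just upstream of Jak2, and those around matches to an interferon-response element, are shown for reference, taken from RefSeq on GRCm38.p6. That table holds a window of 250 bases before and 50 after the start of a transcript for each of the 10 genes. GAS, the element of interferon-γ responses, was searched as TTCNNNGAA, which reads the same on both strands, and ISRE, the element of type I responses, as GAAANNGAAA on both strands. GAS was found in Ifnar1, Ifnar2 and Ifng, and in 8.30% of 32851 promoters of this length. ISRE was found in none of the 10 and in 3.44% of all promoters. A match is a string of letters and not a measured site, and no match says only that these letters are not in the window. The 3 windows with GAS are printed on the forward strand with the match in capitals, Ifnar2 at chr16:91372559-91372588, Ifnar1 at chr16:91485200-91485229 and Ifng at chr10:118440796-118440825:
Ifnar2: tgccaaggccTTCCTGGAAgaagagagtac
Ifnar1: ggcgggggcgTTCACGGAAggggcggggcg
Ifng: tTTCAGAGAAtcccacaagaatggcacagg

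The match in Ifnar2 begins 214 bases before the transcript start, that in Ifng 249 bases before it, and that in Ifnar1 spans the start. The 250 bases before the start of Jak2, the gene with the largest decrease among the 10, lie at chr19:29251553-29251802 on the forward strand and are shown with matches to the GC box, searched as GGGCGG on both strands, in capitals:
Jak2: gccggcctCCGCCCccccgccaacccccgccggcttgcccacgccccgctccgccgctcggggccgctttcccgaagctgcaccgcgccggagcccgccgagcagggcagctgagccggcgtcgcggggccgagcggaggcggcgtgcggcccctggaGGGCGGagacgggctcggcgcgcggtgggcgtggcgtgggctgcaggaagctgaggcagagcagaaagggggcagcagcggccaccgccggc

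The whole Jak2 window, with the 50 bases after the start that are not printed, is 81.0% G and C, and 99.3% of all promoters have a lower content. The GC box was found in 35.7% of all promoters. Among the 10 genes it is not particular to Jak2. The windows of Ifnar1, Ifnar2, Ifngr1, Ifngr2, Jak1, Jak3 and Tyk2 also held it, and those of Ifnb1 and Ifng did not. Ifnar1 and Ifngr2 held 4 matches each, against 3 in the whole Jak2 window.

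Of the 10 genes, 8 passed the filter, and in CPM after TMM scaling all 8 were lower in the HO + β-SITO group in every library. Jak2 and Ifnar2 were called lower, 2 of 8, where 10.1% of all tested genes were called lower and 22.8% in either direction. The other 6 fell by less than 2-fold with an adjusted p under 0.05. At that adjusted p and any fold, 66.8% of all tested genes differed and 33.8% were lower, and for 35.8% the groups did not overlap with the HO + β-SITO group below. In edgeR 0 of the 8 were called higher, against 12.8% of all tested genes, with 0 higher at an unadjusted p under 0.05 and 0 called higher by DESeq2 or limma-voom. The median log2 fold change of the 8 was -0.79, and that of all tested genes -0.01. For each of the 8 an exact permutation test of 3 libraries against 3 gave p = 0.1, the smallest it allows, so single genes rest on fits across all genes.

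Of the 2 transcripts of the type I receptor, Ifnar2 fell more than Ifnar1, and receptor protein was not measured here. Ifnar2 (ENSMUSG00000022971, chromosome 16, 91169671 to 91202477), the chain that binds interferon with the higher affinity, had 92.5, 89.6 and 89.4 CPM in V1, V2 and V3 and 27.4, 29.2 and 27.5 CPM in T4, T5 and T6. The groups were far apart and the libraries within each close together. Its log2 fold change was -1.69 (SE 0.06, n = 3 per group, edgeR adjusted p = 2.20e-12), a 3.23-fold decrease. Ifnar1 (ENSMUSG00000022967, chromosome 16, 91282126 to 91304329), the chain that carries TYK2, had 186.3, 169.6 and 192.3 CPM against 109.5, 102.1 and 105.5 CPM. The groups did not overlap, and the log2 fold change was -0.79 (SE 0.06, edgeR adjusted p = 2.23e-08).

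Measured within each library, which leaves scaling aside, the ratio of Ifnar1 to Ifnar2 per kilobase was 1.13, 1.06 and 1.21 in V1, V2 and V3 and 2.24, 1.96 and 2.15 in T4, T5 and T6. Per kilobase the chains were thus near parity in the HO + Vehicle group, and Ifnar1 exceeded Ifnar2 in the HO + β-SITO group. In CPM Ifnar1 lay above Ifnar2 in all 6 libraries, so the level of the ratio depends on the exon lengths used (5940 and 3329 bp). Its change between the groups does not. The mean log2 ratio rose from 0.18 ± 0.09 to 1.08 ± 0.10 (SD, n = 3), a difference of 0.90 (p = 0.1 by a two-sided exact permutation test, which can go no lower). Another annotated gene, Gm21970, spans part of Ifnar2 and all of Il10rb, and had 0 counts in every library. The counting options are not given in the sources used here, so reads in shared exons may have been left out and the levels of Ifnar2 and Il10rb are uncertain.

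Both transcripts of the type II receptor fell by less than 2-fold. Ifngr1 (ENSMUSG00000020009, chromosome 10, 19467697 to 19485977), the chain that binds interferon-γ and carries JAK1, had 136.4, 132.3 and 140.3 CPM in V1, V2 and V3 and 101.6, 94.2 and 97.7 CPM in T4, T5 and T6. The groups did not overlap, and the log2 fold change of -0.48 (SE 0.06, edgeR adjusted p = 2.69e-06) was under 2-fold. Ifngr2 (ENSMUSG00000022965, chromosome 16, 91343960 to 91362511), the chain that carries JAK2, had 203.3, 196.4 and 204.5 CPM against 112.9, 116.0 and 121.3 CPM. Here the decrease was larger, with a log2 fold change of -0.79 (SE 0.06, edgeR adjusted p = 6.65e-09).

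Per kilobase the ratio of Ifngr1 to Ifngr2 was 0.888, 0.892 and 0.908 in V1, V2 and V3 and 1.19, 1.07 and 1.07 in T4, T5 and T6. All 3 HO + Vehicle libraries were below 1 and all 3 HO + β-SITO libraries above it. In CPM Ifngr1 lay below Ifngr2 in every library, so the side of 1 depends on the exon lengths used. The difference in log2 ratio was 0.31, from -0.16 ± 0.02 to 0.15 ± 0.09 (SD, n = 3, exact permutation test, two-sided, p = 0.1). The transcripts of both chains remained abundant. The level per kilobase of Ifngr1 exceeded that of 92.6% of tested genes under HO + Vehicle and 91.4% under HO + β-SITO. For Ifngr2 these shares were 93.3% and 90.3%.

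**Figure D2:**
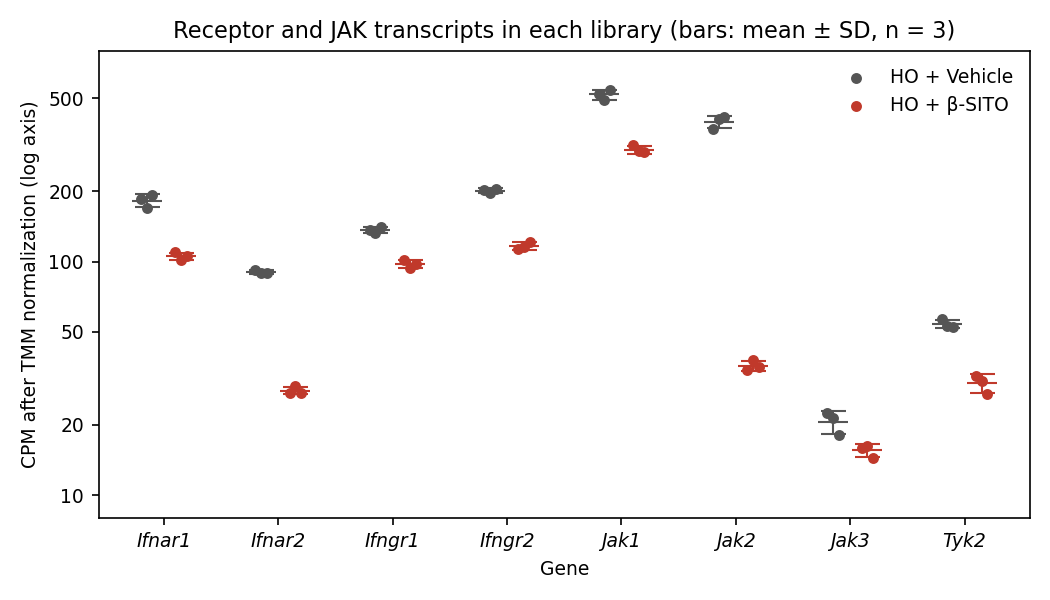
CPM of the 4 receptor chains and 4 JAK genes on a log axis, with points for the libraries and bars for the mean ± SD of 3 libraries in each group. After TMM scaling the points of the groups do not overlap for any of the 8 genes, and the gap is widest for Jak2, at 397.0 against 35.9 CPM.

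Jak2 (ENSMUSG00000024789, chromosome 19, 29229228 to 29290480), the kinase of the interferon-γ receptor and of many hormone and cytokine receptors, decreased most. It had 368.6, 406.5 and 416.0 CPM in V1, V2 and V3 and 34.5, 37.9 and 35.3 CPM in T4, T5 and T6. The lowest HO + Vehicle library lay far above the highest HO + β-SITO library. The mean fell from 397.0 ± 25.1 to 35.9 ± 1.75 CPM (SD, n = 3), an 11.1-fold decrease, with a log2 fold change of -3.47 (SE 0.07, edgeR adjusted p = 1.48e-15). Only 2.49% of all tested genes had a lower log2 fold change. The study names Jak2 among the genes that fell in these libraries, so its direction is not independent evidence.

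Jak1 (ENSMUSG00000028530, chromosome 4, 101009564 to 101122479), the kinase shared by both receptors, had 521.1, 493.9 and 544.6 CPM against 314.9, 296.6 and 294.0 CPM. The groups did not overlap, and the log2 fold change was -0.78 (SE 0.06, edgeR adjusted p = 1.51e-08). Tyk2 (ENSMUSG00000032175, chromosome 9, 21015364 to 21042539), the kinase of IFNAR1, had 56.8, 53.1 and 52.4 CPM against 32.4, 30.9 and 27.2 CPM. Its log2 fold change was -0.84 (SE 0.08, edgeR adjusted p = 1.13e-07), close to those of Jak1 and Ifnar1.

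Jak3 (ENSMUSG00000031805, chromosome 8, 72128940 to 72143219) was the least abundant kinase and changed least. It had 22.5, 21.3 and 18.04 CPM in V1, V2 and V3 and 15.98, 16.3 and 14.4 CPM in T4, T5 and T6. After TMM scaling V3 lay close to T5, without overlap. In raw counts V3 (291) lay below T4 (311), so for Jak3 the gap between the groups rests on the scaling. The log2 fold change was -0.41 (SE 0.10, edgeR adjusted p = 0.0019), and it was -0.26 when libraries were scaled by their size alone. Insl3 lies inside the end of Jak3, with at most 1 count in any library, so reads in shared exons are uncertain. A noncoding gene on the other strand, 1700084C06Rik, overlaps Tyk2 over 24326 bp with 0 counts in every library, and with the strand setting unknown the same holds for Tyk2.

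The makeup of the JAK transcripts differed between the groups. Of the counts per kilobase of the 4 genes, Jak2 held 46.4%, 50.2% and 48.9% in V1, V2 and V3 and 11.8%, 13.4% and 12.9% in T4, T5 and T6. Jak1 held 45.7%, 42.5% and 44.6% against 74.9%, 73.1% and 74.9%. Per kilobase Jak1 and Jak2 were thus nearly equal in the HO + Vehicle libraries, and Jak1 held most of the JAK transcripts in the HO + β-SITO libraries. Without division by exon length (7227 bp for Jak1 and 5030 bp for Jak2), Jak1 lay above Jak2 in every library. The mean share of Jak2 fell by 35.8 percentage points, from 48.5 ± 1.94% to 12.7 ± 0.83% (SD, n = 3, exact permutation test, two-sided, p = 0.1). Tyk2 rose in share from 4.86 ± 0.36% to 7.81 ± 0.46% and Jak3 from 2.38 ± 0.34% to 5.17 ± 0.25% (SD, n = 3), although the level of each was lower. The 4 genes summed to 162.6 ± 5.80 CPM per kilobase under HO + Vehicle and 56.2 ± 1.90 under HO + β-SITO (SD, n = 3). Over the 6 comparisons of ratios and shares the adjusted p was 0.1 for each, which no result from 3 libraries against 3 can pass.

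**Figure D3:**
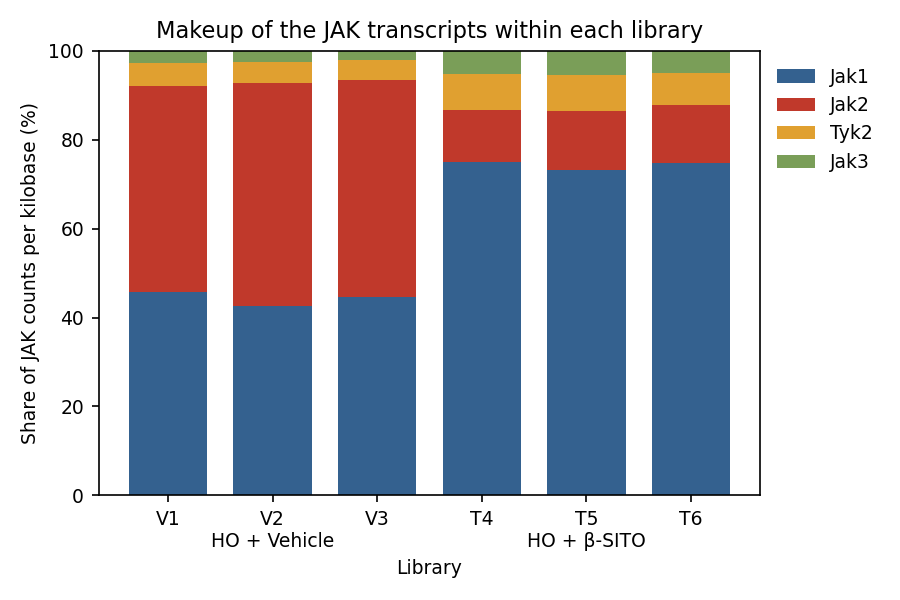
Share of each Janus kinase gene in the summed JAK counts per kilobase, in percent, as a stacked bar for each library. Jak2 makes up 46.4% to 50.2% of the bar in V1 to V3 and 11.8% to 13.4% in T4 to T6.

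Ordered by level per kilobase, the 8 genes ran Jak2, Jak1, Ifngr2, Ifngr1, Ifnar1, Ifnar2, Tyk2 and Jak3 in the HO + Vehicle group. Jak2 (73.3 to 82.7 CPM per kilobase) and Jak1 (68.3 to 75.4) overlapped, and the other neighbours in this order did not. In the HO + β-SITO group the order was Jak1, Ifngr1, Ifngr2, Ifnar1, Ifnar2, Jak2, Tyk2 and Jak3, and no neighbours overlapped. Jak2 moved from first to the sixth place, at 6.87 to 7.53 CPM per kilobase, just under Ifnar2 at 8.23 to 8.78. These places depend on the exon lengths used, and in CPM Jak1 lay above Jak2 in every library.

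**Figure D4:**
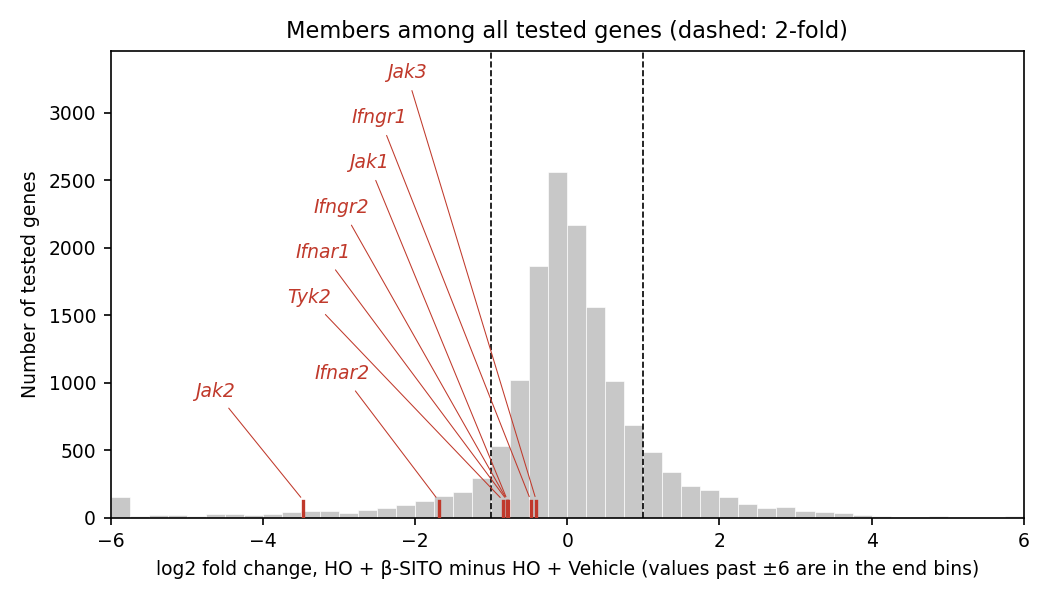
Number of tested genes by log2 fold change between the groups (grey bars, 14799 genes), with the 8 tested receptor and JAK genes marked in red and 2-fold changes as dashed lines. Jak2 at -3.47 and Ifnar2 at -1.69 lie past the 2-fold line, and the other 6 lie between -0.84 and -0.41.

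Ifnar2, Il10rb, Ifnar1 and Ifngr2 lie side by side on chromosome 16, within 192.8 kb on the forward strand, so genes of the same cluster could be compared. Il10rb (91203052 to 91222722), the shared chain of the interferon-λ and interleukin-10 receptors, had 14, 11 and 9 counts in V1, V2 and V3 and 3, 8 and 9 in T4, T5 and T6. Gm21970 spans all of Il10rb, so reads in shared exons may have been left out and this low level is uncertain. The groups touched at 9 raw counts, though not in CPM (0.558 in V3, the lowest of its group, and 0.469 in T6, the highest of its group). The gene did not pass the filter and was not tested. Ifnlr1, the other chain of the interferon-λ receptor, had a log2 fold change of -0.20 (SE 0.22, edgeR adjusted p = 0.447). Of 5 neighbours beyond Ifngr2, the log2 fold changes were 0.26 for Tmem50b, 0.74 for Dnajc28, -0.18 for Gart, -0.08 for Son and -0.50 for Donson, with neither direction shared by all. These 5 were each changed by less than 2-fold, and Son did not pass the adjusted p (0.356).

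**Figure D5:**
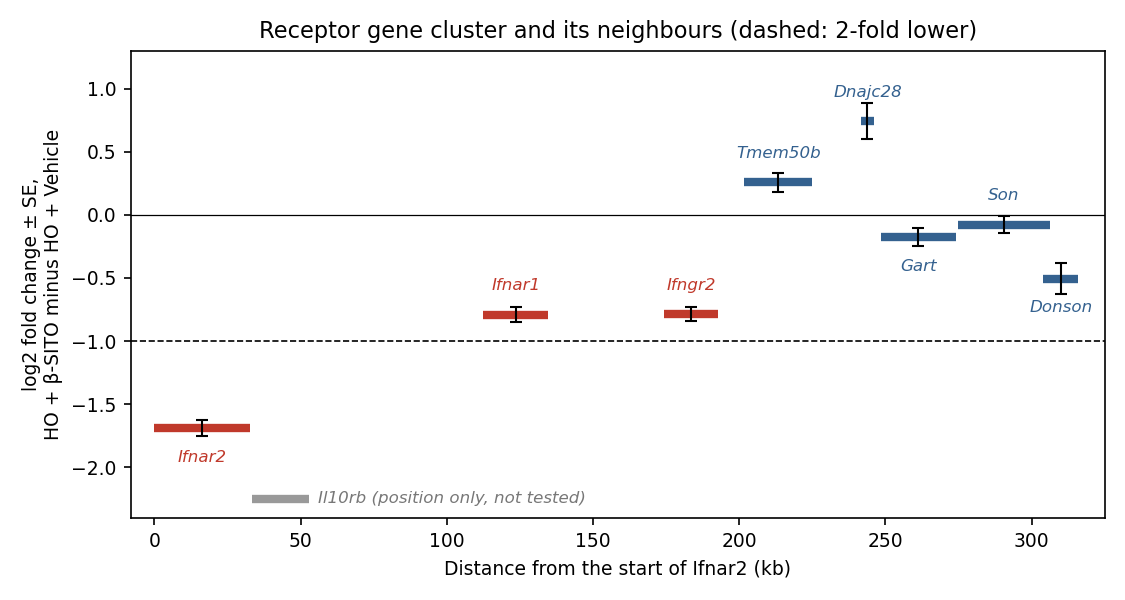
The log2 fold change ± SE (vertical) of the receptor cluster and its neighbours by position, as distance in kb from the start of Ifnar2 (horizontal bars span each gene; red for receptor chains, blue for neighbours; the grey bar of Il10rb, which was not tested, shows position only). Ifnar2 lies at -1.69, Ifnar1 and Ifngr2 both at -0.79, and the neighbours between -0.50 and 0.74.

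Downstream of the kinases, Stat2 and Irf9, signal transducers of type I interferons, were called lower. Stat2 had 418.1 ± 16.9 CPM against 38.8 ± 3.81 CPM (SD, n = 3), with a log2 fold change of -3.43, and that of Irf9 was -1.67. Stat3, which mainly serves other cytokines, was not called, at -0.86.

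All 26 listed interferon response genes were called lower, against 10.1% of all tested genes, with a median log2 fold change of -6.63. This list and those below were chosen with earlier results of these data known, so their counts are not independent evidence. Those with the largest changes were Cxcl9, Cxcl10, Gbp4 and Mx1. Cxcl9, a chemokine for T cells, had 5998, 6519 and 6502 counts in V1, V2 and V3 and 1, 2 and 0 counts in T4, T5 and T6, and Mx1, an antiviral GTPase, went from 155.4 ± 5.46 to 0.248 ± 0.131 CPM (SD, n = 3). The HO + Vehicle libraries thus held these transcripts at high levels with almost no counts of a ligand gene. Zbp1 in this list is also named by the study as lower in these libraries, so its direction was known from there too.

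Among 16 genes that restrain JAK-STAT signaling, 5 were called lower (31.2%, against 10.1% of all tested genes) and 11 were not called. Of those not called, Socs2 (0.52), Sh2b3 (0.52), Pias1 (0.31), Pias3 (0.27) and Cbl (0.24) were higher with an adjusted p under 0.05. Cish (-0.59), Pias4 (-0.26) and Ptpn11 (-0.22) were lower at that adjusted p. The median log2 fold change of the 16 was -0.14. Usp18, which displaces JAK1 from IFNAR2, fell most (log2 fold change -6.87), followed by Socs1 (-3.24) and Socs3 (-1.78), which bind and block JAK kinases, and Ptpn2 (-1.50), a phosphatase of JAK1. The fifth was Ptpn1 (-1.04), whose call was lost without V1 (-0.99), without T5 (-0.98), with scaling by library size alone (-0.89) or by the upper quartile (-0.90), and with glmTreat (edgeR adjusted p = 0.474). The other 4 kept their call under every alternative run.

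Of 15 genes that sense nucleic acids and induce interferons, 9 were called lower (60.0%, against 10.1% of all tested genes). The median log2 fold change of the 15 was -1.38. Among the 6 not called, Tlr7 (0.59), Mavs (0.41), Irf3 (0.365) and Ticam1 (0.22) were higher with an adjusted p under 0.05. Cgas (-0.89) was lower at that adjusted p. The largest decreases were those of Irf7 (-6.85), which is also among the listed response genes, Dhx58 (-4.33), Tlr3 (-4.12) and Ifih1 (-3.70). Irf7, a transcription factor for interferon genes that is itself induced by interferon, had 1226 ± 75.7 CPM against 10.7 ± 1.49 CPM (SD, n = 3).

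Other receptors that use JAK kinases held calls in both directions. Of 37 chains, 27 were tested, with 9 called lower (33.3%, against 10.1% of all tested genes), 3 called higher (11.1%, close to the 12.8% of all tested genes) and a median log2 fold change of -0.31, while Il5ra had 0 counts in every library. Il12rb1, a chain of the interleukin-12 receptor, had 79, 93 and 104 counts in V1, V2 and V3 and 1, 2 and 3 counts in T4, T5 and T6. Il15ra, which presents interleukin-15, fell by 3.65 on the log2 scale. The prolactin receptor Prlr had 4, 5 and 1 counts against 73, 71 and 63 (log2 fold change 4.09), and the erythropoietin receptor Epor 3, 1 and 2 counts against 25, 25 and 29 (3.41). Both of these receptors signal through JAK2, and both were low in counts. Of genes chosen here with their values in view, Il2rg, the common γ chain on which JAK3 sits, had a log2 fold change of -2.58, and 2 chains of the gp130 family, Osmr (-1.81) and Lifr (-1.73), fell with the group while their shared chain Il6st (-0.31) did not reach 2-fold. The number called higher was 5 without V3 or without T5.

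The tested genes whose pattern was nearest to that of Jak2, by Euclidean distance between centred log2 CPM over the 6 libraries among 10992 genes, were Steap1 (distance 0.18), Zmynd15 (0.19) and Neurl3 (0.21). For Ifnar2 they were Rnf19b (0.08), Rnf114 (0.10) and Myd88 (0.11). For Tyk2 the nearest were Atf6b (0.10), Trim26 (0.12) and Cd180 (0.13), and for Ifngr1 they were Wdr36, Ugdh and Prpf3, at 0.04 to 0.05. With 2 groups of 3, such a distance mostly reflects the size of the difference between the groups.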

How the data were processed

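RNA-seq counts of 6 NMCM libraries were used, 3 per group, grouped by the treatment in the sample titles. The authors deposited raw read counts per gene without normalization. The submitters' processing notes name FastQC, HISAT2, featureCounts and GRCm39. Versions, strand setting and counting options are not given in the sources used here. For the library kit the labels name Illumina and the paper ABclonal.

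From the counts, edgeR 4.0.16 in R 4.3.3 was run with filterByExpr (14799 genes kept), TMM normalization, the group as the only term, the quasi-likelihood test and Benjamini-Hochberg adjustment over all tested genes. Calls needed a change past 2-fold besides an adjusted p under 0.05. The study used DESeq2 (here 1.42.0), which with limma 3.58.1 was an alternative. Other alternatives were normalizations, filters, glmTreat, no fold-change threshold and leaving out each library. Exact permutation tests used scipy 1.17.1. The table holds no gene length, so exon length came from GENCODE vM21 (GRCm38), matched by identifier for 52081 of 57010 genes and used for length only. Its coordinates were not used. Libraries of a group differed beyond sampling noise (chi-square per gene 1.96 to 9.06, where 1 is noise).

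The members, lists and rules were chosen with earlier results of these data known. All 10 members are named. From each pathway list the text names at most 4 called genes, those with the largest change, with exceptions stated. For Jak2, Ifngr1, Ifnar2 and Tyk2 it names the 3 nearest genes with a mean of at least 100 counts. On simulated counts for this comparison (14601 genes), 199 of 200 changed genes passed the adjusted p and 3 unchanged genes were called. The 200 were all well covered, and in the data 66.8% of tested genes passed the adjusted p. The simulation thus did not test the scaling between libraries under so many changes. Depth sets the limit that a count of 0 allows, computed as 3 counts. Some genes of the pathway lists are not reported here.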

Additional observations from a re-analysis of the deposited data

How the results depend on the processing

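No paired analysis was possible because the replicate numbers 1 to 3 and 4 to 6 are not shared between the groups. Under all 15 alternatives the 8 tested receptor and JAK genes kept a negative log2 fold change, Jak2 between -3.50 and -3.32 and Ifnar2 between -1.70 and -1.54, and these 2 were called under each. For the other 6 genes the adjusted p passed under 14 of 15 alternatives, all but glmTreat, which tests against 2-fold. Scaling by library size alone moved the median of all genes by 0.15 on the log2 scale and upper quartile scaling by 0.14. Ratios and JAK shares kept their direction under every alternative run. Without a fold-change threshold, the calls were 8 members lower, 5007 genes lower and 4885 higher, 5 genes lower and 2 higher in the chromosome 16 cluster list, 8 lower and 5 higher among JAK-STAT restraints, 15 lower and 7 higher among other JAK-coupled chains, and 4 higher among inducers of interferons. With libraries left out in turn, the interferon-λ receptor list had 0 to 1 lower and the cluster list 1 to 2, since Il10rb passed only without T6 (log2 fold change -1.23, edgeR adjusted p = 0.0491), and other JAK-coupled chains had 3 to 5 higher. Il23r, at 0 or 1 count in the HO + β-SITO libraries, was called lower without V2, T4, T5 or T6 (-6.69 to -4.46). Calls of Ptpn1, Csf2rb and Traf3 were lost with library size or upper quartile scaling and with glmTreat. Depth limits the ligands: neither could be compared.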
